A study of Mus musculus with 2 samples.

Results

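Hnf4a, Prox1, Hhex, Onecut1, Cebpa, Gata4, Gata5 and Gata6 are 8 transcription factors that together mark the early liver and its endodermal neighbours. Their signals were read in whole limb buds of mouse embryos at E10.5, from the C57BL/6 line, on 1 array of wild-type RNA and 1 array of RNA from Bhlha9 knockout embryos. Members were all probe sets whose annotation gave exactly 1 gene symbol equal to one of these names, which gave 18 of 34945 single-symbol probe sets and 8 of 18193 genes. Bhlha9 encodes a basic helix-loop-helix factor of the limb bud, and the comparison asks which transcripts differ without it. The sources used here do not say how the allele was made, how many embryos were pooled or in what proportion forelimbs and hindlimbs were taken. With 1 array a group there was no residual spread, so no test was made, and "higher" and "lower" describe these 2 arrays.

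The liver arises as a bud of foregut endoderm next to the heart and the septum transversum. GATA and FOXA factors open liver genes in that endoderm, HHEX and PROX1 are needed for the bud to grow out, and ONECUT1, HNF4A and CEBPA then bring on the hepatocyte programme. None of the 8 factors belongs to liver alone. Prox1 is also a factor of lymphatic endothelium, lens, heart muscle and young neurons, Hhex of endothelium and thyroid, Onecut1 of pancreas and motor neurons, and Cebpa of fat and myeloid cells. The 3 GATA genes are also expressed in heart, in mesothelium and in the mesenchyme around the gut. In RNA from whole tissue, fewer cells of a type and less RNA per cell cannot be told apart.

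Values are MAS 5.0 signals on a linear scale, and each array was scaled on its own to a 2% trimmed mean of 500.0. A signal under the 40th percentile of the array's non-control probe sets was treated as not detected. That floor was 41.2 for wild-type and 41.75 for knockout tissue. Lower signals were raised to the floor before the ratio was taken, so a ratio with 1 array at the floor is a bound, and no ratio is given with both at the floor. A difference of 2-fold, 1 on the log2 scale, was counted as past the threshold. The signals of different probe sets are not compared, because each has its own affinity. Bhlha9 itself, by its single probe set, read 7.87 in wild-type and 1.70 in knockout tissue. Both signals were under the floor and give no check of the labels.

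Of the 18 probe sets, 10 were above the floor on at least 1 array, 5 on both and 5 on the knockout array only. None was above the floor in wild-type tissue only. Hnf4a, Prox1 and Gata4 were past 2-fold, with the higher signal in knockout tissue, Hhex and Gata5 were higher by less than that, Gata6 was nearly level, and Onecut1 and Cebpa were under the floor on both arrays.

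**Figure D1:**
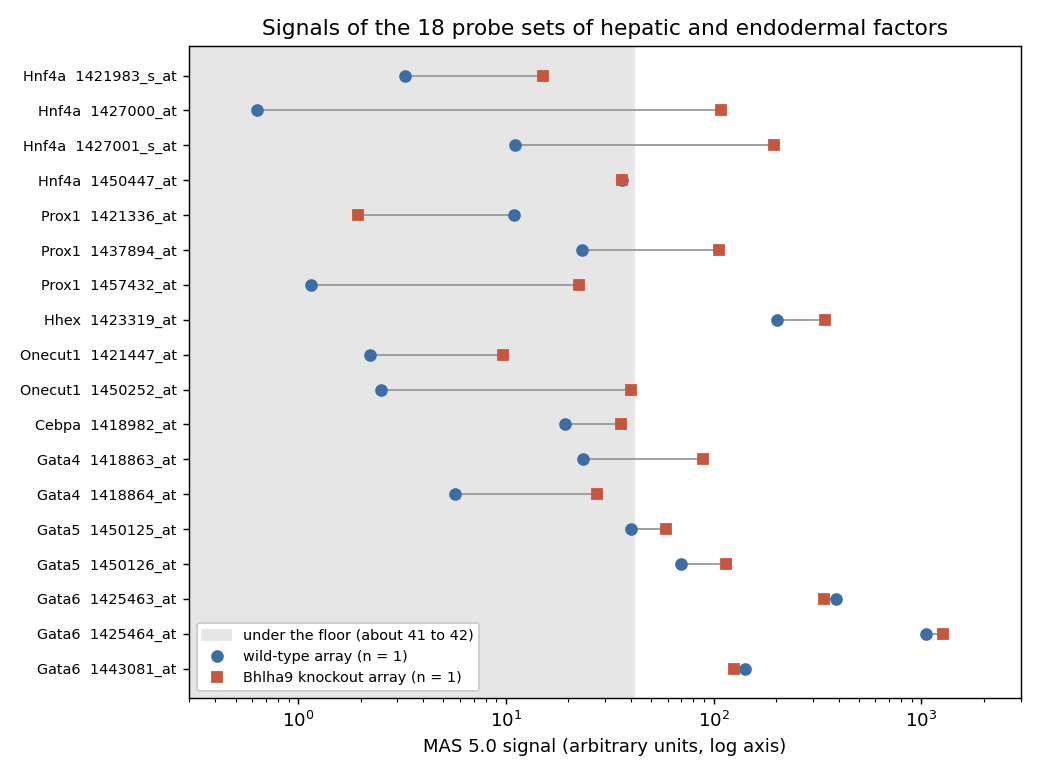
MAS 5.0 signal (log axis) of each of the 18 probe sets on the wild-type array (circles) and the Bhlha9 knockout array (squares), 1 array each, with the range under the floor shaded. The knockout signals of Hnf4a 1427000_at and 1427001_s_at, Prox1 1437894_at and Gata4 1418863_at lie between 89.1 and 196 while their wild-type signals are shaded, and the 3 probe sets of Gata6 are to the right of the floor on both arrays.

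Hnf4a encodes a nuclear receptor that drives apolipoprotein, clotting factor and other hepatocyte genes and is also made in gut, pancreas, kidney and visceral endoderm. It was higher by 2 of its 4 probe sets. Probe set 1427001_s_at read 11.1 in wild-type and 196 in knockout tissue, at least 4.76-fold higher. Probe set 1427000_at read 0.634 and 108, at least 2.63-fold higher. The remaining pair gave no ratio, with 36.3 on both arrays for 1450447_at, and 3.27 and 15.1 for 1421983_s_at. Thus all 4 were under the floor in wild-type tissue and 2 passed it on the knockout array. Such bounds can only be positive, so their shared direction adds nothing. The ending _s_at marks probes shared between transcripts, while 1427000_at carries no such mark. Which Hnf4a transcripts each probe set reads was not analysed here.

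The gene has a pair of promoters, an upstream one and a downstream one, both used in the developing liver. They are shown because Hnf4a is past 2-fold by 2 probe sets and because one of them holds matches to motifs of other members. RefSeq sequences of build GRCm38.p6 were read for 6 of the 8 factors, all but Gata4 and Gata6. The 250 bases before each start were searched on both strands for 6 motifs. They were GATA as AGATAA with the variants AGATAG and TGATAA and also TGATAG, FOXA as TGTTTAC or else TGTTTGC, CEBP as TTGCNNAA, ONECUT as ATTGATT or else ATCGATT, HNF4 as CAAAGTCCA, and the palindromic HNF1 motif. Capitals mark the matches, and both genes are printed 5′ to 3′ on their own strand. The upstream Hnf4a window is chr2:163506607-163506856 and the downstream one chr2:163546905-163547154, both on the + strand. The Prox1 window, chr1:190169516-190169765 on the - strand, belongs to one of the 2 starts in the table and is shown for its FOXA match.
Hnf4a upstream: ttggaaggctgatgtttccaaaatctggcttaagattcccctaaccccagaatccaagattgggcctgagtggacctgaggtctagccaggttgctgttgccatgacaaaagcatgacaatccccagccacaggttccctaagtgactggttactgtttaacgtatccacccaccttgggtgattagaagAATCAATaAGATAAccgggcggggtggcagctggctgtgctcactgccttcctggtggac
Hnf4a downstream: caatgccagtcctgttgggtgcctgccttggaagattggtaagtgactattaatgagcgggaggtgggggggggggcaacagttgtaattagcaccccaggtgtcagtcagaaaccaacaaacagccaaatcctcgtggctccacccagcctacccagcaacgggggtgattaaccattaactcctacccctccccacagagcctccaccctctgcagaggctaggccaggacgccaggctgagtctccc
Prox1: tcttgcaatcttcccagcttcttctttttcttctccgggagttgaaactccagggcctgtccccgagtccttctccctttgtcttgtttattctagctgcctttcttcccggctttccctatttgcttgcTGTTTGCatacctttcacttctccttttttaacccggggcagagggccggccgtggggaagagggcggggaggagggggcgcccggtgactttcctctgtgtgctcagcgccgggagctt
The upstream Hnf4a window held an ONECUT match, AATCAAT, from 60 to 54 bases before the start, and a GATA match, AGATAA, from 52 to 47 bases before it. The matches do not overlap. Among 32851 RefSeq promoter windows, 2.99% held an ONECUT match and 26.5% a GATA match in the same 250 bases. The downstream Hnf4a window held none of the motifs as written. All windows held a CEBP match in 9.56%, an HNF4 match in 0.384% and the exact HNF1 palindrome in 0.00913%. A missing HNF4 or HNF1 match therefore says little. The Prox1 window held TGTTTGC from 120 to 114 bases before the start, as 7.29% of all windows held a FOXA match. The window of the other Prox1 start had no match, and neither did those of Hhex, Onecut1, Cebpa and Gata5. Each match is a run of letters only, and no binding was measured.

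Prox1 encodes a homeodomain factor with which hepatoblasts leave the bud and spread into the surrounding mesenchyme. It was higher by 1 of 3 probe sets. Probe set 1437894_at read 23.3 in wild-type and 106 in knockout tissue, at least 2.58-fold higher. The other two stayed under the floor on both arrays, 1457432_at at 1.16 and 22.6 and 1421336_at at 10.9 and 1.94. The Prox1 reading thus rests on a single probe set with no detected wild-type signal.

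Hhex encodes a homeodomain repressor of the ventral foregut that liver, thyroid and endothelium share. Its single probe set, 1423319_at, was above the floor on both arrays, at 201 and 343, a log2 ratio of 0.77 or 1.70-fold higher. A scale for this ratio is the spread over 4189 probe sets whose mean log2 signal lay within 1.5-fold of it. Their central 95% ran from -1.19 to 1.05, and 5.11% had a ratio at or above that of Hhex. The difference was therefore inside the range of other probe sets of like signal. Unlike Hnf4a, Hhex was detected in the wild-type tissue.

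Onecut1, also called Hnf6, encodes a factor of the liver and pancreas that acts ahead of Hnf4a, and both its probe sets were under the floor on both arrays. Probe set 1450252_at read 2.51 and 39.99, just short of the knockout floor of 41.75, and 1421447_at read 2.23 and 9.67. Cebpa encodes a leucine zipper factor of metabolic genes in hepatocytes, and its single probe set, 1418982_at, read 19.3 and 36.0. Signals under the floor have no order, so neither gene was called. Both were above a floor set lower, at the 30th percentile, on the knockout array only, at least 1.85-fold higher for Onecut1 and at least 1.66-fold for Cebpa.

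The GATA factors are zinc finger proteins named for the DNA letters they bind, and the 3 members of the endodermal and cardiac branch differed from each other. Gata4, required for the septum transversum and for the heart, was higher by 1 of 2 probe sets. Probe set 1418863_at read 23.6 in wild-type and 89.1 in knockout tissue, at least 2.16-fold higher. The other, 1418864_at, read 5.67 and 27.4, under the floor on both. With the lower floor of the 30th percentile both signals of 1418863_at were measured, a ratio of 3.78-fold.

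Gata5, a gene of endocardium, gut and other endoderm, read 69.6 and 115 by 1450126_at, a log2 ratio of 0.72 or 1.65-fold higher. Its second probe set, 1450125_at, read 39.9 and 58.8, at least 1.43-fold higher. Neither probe set of Gata5 passed 2-fold, and the bound of 1450125_at could only be positive. Among 3648 probe sets of like signal the central 95% ran from -1.37 to 1.33, and 12.5% had a ratio at or above 0.72.

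Gata6, the broadest of the 3, is made in endoderm, heart and smooth muscle and also in limb bud mesenchyme. All 3 of its probe sets were above the floor on both arrays. Probe set 1425464_at read 1057 and 1268, a log2 ratio of 0.26. Probe set 1425463_at read 386 and 341, a log2 ratio of -0.18, and 1443081_at read 141 and 126, a log2 ratio of -0.17. The signs were mixed and each size was under the error of 1 log2 ratio read from pairs of probe sets of the same gene. That error was an SD of 0.28 over 5440 genes at all signals. That error is technical and leaves out differences between embryos. Where the dimmer probe set of the pair had a signal up to 200, the SD was 0.43, which is the range where Hnf4a, Prox1, Gata4 and Gata5 lie. Where the dimmer signal was over 200, the SD was 0.22. Gata6 1425464_at and 1425463_at lie in that range, and the 0.26 of 1425464_at was above that SD.

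**Figure D2:**
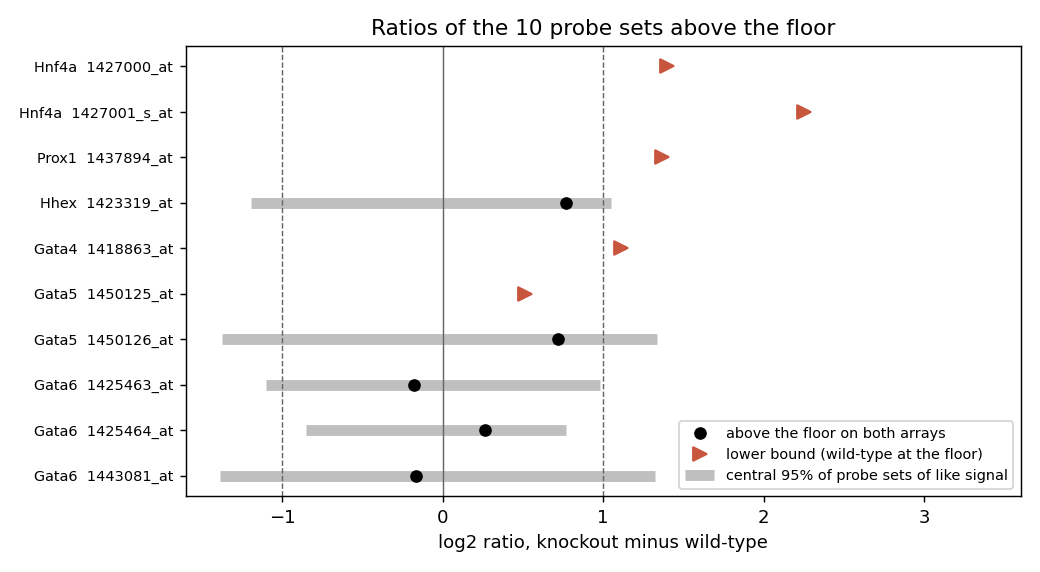
Log2 ratio, knockout minus wild-type, of the 10 probe sets above the floor on at least 1 array. Dots are ratios measured on both arrays, triangles are lower bounds, grey bars are the central 95% of other probe sets of like signal and dashed lines mark 2-fold. The 4 triangles past 1 are Hnf4a (1.40 and 2.25), Prox1 (1.37) and Gata4 (1.11), and all 5 dots lie inside their grey bars.

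Read by probe set, 4 of the 10 above the floor were at least 2-fold higher and 0 were at least 2-fold lower, where 3.38% of all 24162 probe sets above the floor were higher and 3.89% lower. Read by gene, through the probe set with the highest mean signal, 3 of 6 were higher and 0 lower, where 4.15% of 13088 genes were higher and 2.65% lower. The median log2 ratio was 0.94 over the 6 factors and 0.01 over those 13088 genes. The 4 higher probe sets had no detected wild-type signal, so they passed the floor through the knockout array alone and their ratios could only be positive. A count can instead start from the wild-type array, which does not select on the knockout signal. Ratios with the wild-type signal at the floor still cannot be negative. Of 13 member probe sets under the wild-type floor, 5 (38.5%) were above the knockout floor and 4 (30.8%) at least 2-fold higher. Over all 12531 probe sets under the wild-type floor, 13.9% were above the knockout floor and 2.47% at least 2-fold higher. Among 44 probe sets of olfactory receptors, genes not known from limb buds, 2 were above the floor on the knockout array only, 0 were 2-fold higher and 0 lower. Of 8 member probe sets under the knockout floor, 0 were above the wild-type floor, against 12.3% of all such probe sets, of which 1.55% were at least 2-fold lower. The 5 member probe sets above the floor on both arrays were all within 2-fold, where 2.43% of all such probe sets were past it in the higher direction. The members measured on both arrays, Hhex, Gata5 and Gata6, had a median of 0.72, against -0.01 over 11491 genes, and 0 of the 3 were past 2-fold, where 2.87% of those genes were higher and 2.51% lower. These are counts over a handful of genes chosen with earlier results of these data known, and they were not tested.

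The calls depended on the floor. Under a 60th percentile floor, 168 and 153, only Gata6, Hhex and Hnf4a 1427001_s_at remained above it. There, 0 member genes were past 2-fold, where 1.64% of all genes were higher and 1.61% lower. The Hnf4a bound under that floor was 0.22 on the log2 scale. Under a 30th percentile floor, the log2 ratios were 3.18 and 2.32 for the 2 Hnf4a probe sets as bounds, and 2.19 for Prox1 and 1.92 for Gata4 as ratios. Median centring, quantile normalization and loess kept the 4 probe sets past 2-fold.

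**Figure D3:**
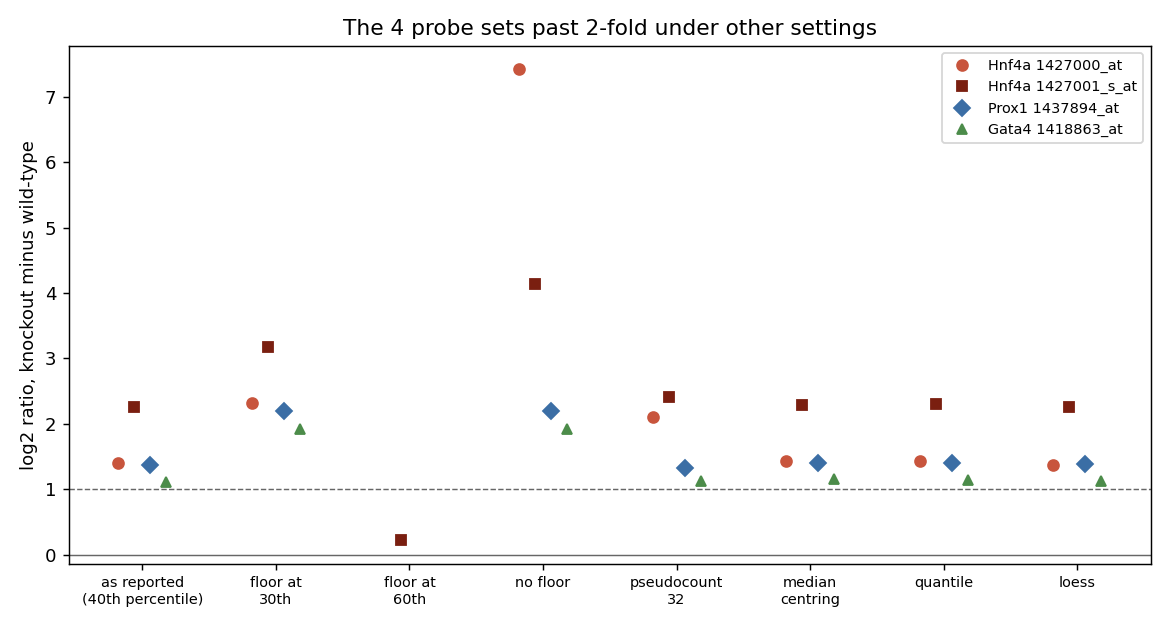
Log2 ratio, knockout minus wild-type, of the 4 probe sets past 2-fold (2 of Hnf4a, 1 each of Prox1 and Gata4) as reported and under 7 other floors and scalings, with 2-fold dashed. The points stay above 1 in all settings but the floor at the 60th percentile, where only Hnf4a 1427001_s_at has a value, 0.22. The value of 7.42 without a floor divides by a wild-type signal of 0.634.

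Other regulators of early endoderm and liver were read from a list of 24 genes. Of 22 measured, 16 were above the floor on at least 1 array, 6 of these passed 2-fold in the higher and 0 in the lower direction, where 4.15% and 2.65% of all genes did. Their median log2 ratio was 0.50 with bounds included and 0.22 over the 10 measured on both arrays, of which 1, Gata3, was past 2-fold. The FOXA genes, pioneer factors that act with GATA4 in the foregut, were under the wild-type floor. Foxa1 read 21.2 and 314, at least 7.62-fold higher, and Foxa2 read 26.6 and 199, at least 4.82-fold higher. Foxa3, the third member and one of liver and gut, read 8.67 and 54.4, at least 1.32-fold higher. Foxa1 and Foxa2 are also genes of the floor plate.

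Paralogues of the members gave further readings. Onecut2, the closest relative of Onecut1 and shared by liver, pancreas and motor neurons, was higher by all 3 of its probe sets, at least 2.68-fold by 1444980_at, which read 9.66 and 110. Onecut3 was under the floor, at 5.59 and 6.99. Thus the Onecut signal above the floor came from Onecut2. Cebpb, a leucine zipper factor of many tissues, read 175 and 336, 1.92-fold higher, and Cebpd read 180 and 200. Gata3, a gene of ectoderm, nerve and kidney precursors, read 97.1 and 263, 2.71-fold higher. The blood factor Gata1 had a log2 ratio of 0.08. Gata2, another factor of blood and endothelium, had -0.11 by its brightest probe set and 0.96 by 1428816_a_at, which read 71.3 and 139. The nuclear receptors next to Hnf4a were split. Nr5a2, a receptor of bile acid and steroid genes, read 37.1 and 148 by 1456521_at, at least 3.59-fold higher, while its other probe sets gave bounds of 1.08-fold and 1.03-fold and 1 gave none. Nr0b2, Nr1h4, Nr1i3 and Hnf4g, and the Prox1 paralogue Prox2, were under the floor on both arrays. Creb3l3, a liver and gut factor, read 8.92 and 88.4, at least 2.15-fold higher. Sox17, a factor of definitive endoderm and of endothelium, was above the floor on both arrays at 467 and 567, a log2 ratio of 0.28.

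Products of the tissues that carry these factors were read from 14 marker lists, in which 5 genes stand on more than 1 list. In the sentences that follow, a share of genes past 2-fold is to be read against the 4.15% of all genes that were higher and the 2.65% that were lower. A summed signal adds probe sets of unlike affinity and is carried by the brightest of them, so it compares the 2 arrays for 1 list and not 1 list with another. Of 17 hepatoblast products measured, 3 were above the floor in wild-type and 16 in knockout tissue, and all 16 were past 2-fold in the higher direction, with a median log2 ratio of 4.31. Their summed signal was 503 and 35830, of which Afp, the fetal serum protein, made up 17.7 and 19084. The median rests on bounds for 13 of the genes, and the 3 measured on both arrays had a median of 2.83. Alb, the serum carrier of the liver, read 2.26 and 2071, and Ttr, a thyroxine carrier, 5.23 and 4179. Apoa2, an apolipoprotein, was measured on both arrays at 89.1 and 2139, 24.0-fold higher. Ahsg, a plasma protein of the fetal liver, was under the floor at 4.54 and 3.97. These genes were listed as hepatoblast products, and whether other endoderm, such as that of the yolk sac, made them was not tested.

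Lists of other endoderm were read for their defining genes. For visceral yolk sac endoderm, 4 of 8 genes above the floor were higher and 0 lower, with a median of 0.62 and summed signals of 1180 and 2484. Over the 4 measured on both arrays the median was -0.08, so its direction rests on the bounds. Apom, an apolipoprotein that liver makes as well, led it at 36.1 and 1135, followed by Spp2 at 30.3 and 142. Next were the endocytic receptor gene Lrp2 at 42.9 and 95.2 by 1452320_at and Apoc2 at 28.2 and 86.8. Of the other Lrp2 probe sets, 1427133_s_at was at least 1.59-fold higher and 1445901_at was under the floor on both arrays. Rhox5 went the other way within 2-fold, at 305 and 201, and Dab2 was nearly level by its brightest probe set, at 613 and 691. Fxyd2 was above the floor in wild-type tissue only, at least 1.20-fold lower by 1419378_a_at. The scavenger receptor gene Cubn read 5.59 and 35.6, under the floor on both, as were Apoa4 and Slc13a4, and its partner Amn had a log2 ratio of -0.33. For gut endoderm, 4 of 7 were higher and 0 lower, with a median of 1.36, or 0.60 over the 5 measured on both arrays, and summed signals of 2052 and 5060. These 4 were Foxa1, Foxa2, the signal gene Shh, at 693 and 1986, and the epithelial adhesion gene Epcam, at 667 and 1716, and Shh and Epcam are also expressed in the limb bud. The intestinal genes Cdx1, Cdx2, Vil1 and Cdh17 were under the floor on both arrays, with Cdx2 at 2.97 and 41.69, just short of 41.75.

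For the pancreatic bud, 7 of 9 genes were under the floor on both arrays, among them the bud factors Pdx1, at 2.26 and 29.4, and Ptf1a, at 21.0 and 40.1. The others were Mnx1, Nkx2-2, Pax4, Gcg and Cpa1. Summed signals were 75.8 and 304. Neurog3, an endocrine factor also expressed in the neural tube, read 2.22 and 103 by 1432034_at, at least 2.50-fold higher. Its other probe set, 1422312_a_at, was under the floor on both arrays. For lung, thyroid and pharynx, 0 of 3 genes above the floor were past 2-fold and summed signals were 243 and 389. Nkx2-1, which defines lung and thyroid, read 18.4 and 3.21, the thyroid product Tg read 2.09 and 5.32, and the lung surfactant gene Sftpc 38.1 and 35.1. Over these 6 lists, with the other regulators counted as endodermal, 29 of 50 genes above the floor were at least 2-fold higher and 0 lower. Of all genes, 4.15% were higher and 2.65% lower. Hepatoblast products made up 16 of the 29, and 22 of the 29 were at the wild-type floor. Outside the hepatoblast list, the 29 included Gata3, Shh and Epcam, which are not genes of endoderm alone.

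**Figure D4:**
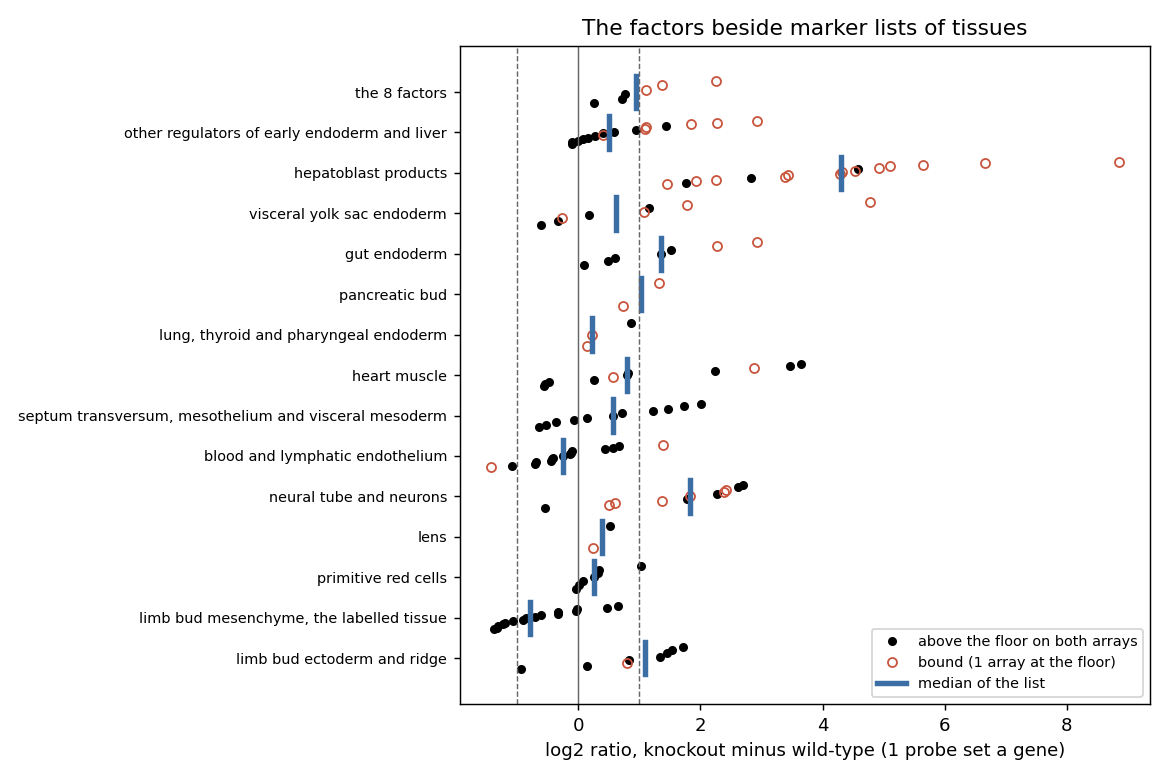
Log2 ratio, knockout minus wild-type, of each gene above the floor on at least 1 array, for the 8 factors and 14 marker lists. Filled dots were measured on both arrays, open circles are bounds and bars are list medians, with 2-fold dashed. Hepatoblast products lie to the right with a median of 4.31, and limb bud mesenchyme lies to the left with a median of -0.78.

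Tissues outside the endoderm that express members also differed between the arrays, and their part in the values of the 8 factors was not tested. The shares of all genes, 4.15% higher and 2.65% lower, apply to each count. Heart muscle expresses Gata4, Gata5, Gata6 and Prox1. Of 11 heart genes above the floor, 4 were higher and 0 lower, with a median of 0.79 and summed signals of 2240 and 3543. The atrial light chain Myl7 read 33.7 and 301, at least 7.32-fold higher, and Tnnc1, a troponin also of slow skeletal muscle, read 46.1 and 580. Myl4 and Tnnt2, which embryonic skeletal muscle also expresses, read 43.1 and 478 and 48.4 and 227. Within 2-fold, Actc1 went the other way, at 1481 and 1067. Ryr2 and Smyd1 also did, with log2 ratios of -0.54 and -0.56 by their brightest probe sets. The other heart genes above the floor had positive ratios. The cardiac factor Nkx2-5 read 15.4 and 6.20, and Myh6, Myl2, Nppa, Nppb and Tnni3 were under the floor on both arrays too.

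Septum transversum, mesothelium and visceral mesoderm express Gata4, Gata5 and Gata6. Of 11 such genes above the floor, all of them on both arrays, 4 were higher and 0 lower, with a median of 0.57. Wt1, a factor of mesothelium, read 118 and 476. Tcf21, a factor of visceral mesoderm, read 119 and 394 by 1417447_at but was level by 1458887_at, at 51.4 and 52.2. The retinoic acid enzyme gene Aldh1a2 read 404 and 1121 and the mesothelial gene Upk3b 183 and 429, while Msln was under the floor on both arrays. Summed signals, 8988 and 8617, did not follow, since Lhx2, Hand2 and Tbx18, which limb mesenchyme also expresses, had log2 ratios of -0.64, -0.37 and -0.53.

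Endothelium, a source of Hhex and, in its lymphatic form, of Prox1, had 1 of 15 genes higher and 2 lower, with a median of -0.24 and summed signals of 10160 and 9946. Kdr and Tie1, receptors of blood vessels, were lower at 1326 and 625 and at 112 and 29.4. Lyve1, a gene of lymphatic and liver endothelium, was higher at 16.0 and 108, at least 2.62-fold. Neural genes, from a tissue that expresses Prox1, Onecut1 and Onecut2, had 8 of 11 higher and 0 lower, with a median of 1.83 and summed signals of 1843 and 6311. Isl1, of motor neurons and also of hindlimb mesenchyme, read 973 and 3355 by 1450723_at. Its other probe set, 1422720_at, was within 2-fold at 475 and 855. The progenitor factor Sox2 read 136 and 890, and the axonal genes Stmn2 and Tubb3 86.4 and 530 and 74.6 and 359. Dcx, of the same list, went the other way within 2-fold, at 481 and 331 by 1418141_at and 392 and 320 by 1418139_at. The lens, another site of Prox1, had 0 of 2 past 2-fold, and the crystallins Cryaa, Cryba1, Crybb1 and Crygd and the factor Foxe3 were under the floor on both. Primitive red cells had summed signals of 85400 and 90900, and of 7 genes 0 were lower and 1 was higher. That gene, Klf1, read 222 and 451, 2.03-fold, and was not past 2-fold with a pseudocount of 32.

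The labelled tissue was present on both arrays. All 16 limb bud mesenchyme genes were above both floors, 6 were past 2-fold in the lower and 0 in the higher direction, with a median of -0.78 and summed signals of 46080 and 31830. Among those past 2-fold, Lhx9 read 6593 and 2613, Shox2 5901 and 2376, Msx1 4137 and 1597 and Tbx4 2810 and 1195, all factors of limb outgrowth or patterning. Prrx1, a gene of the whole limb mesenchyme, read 7757 and 6189 by its brightest probe set and was 2.18-fold lower by 1425526_a_at. By their brightest probe sets, Meis1 and Meis2 went the other way within 2-fold, with log2 ratios of 0.48 and 0.65. Hoxd13 and Pdgfra were nearly level, at -0.03 and -0.04. Of 8 genes of limb ectoderm and ridge, 4 were higher and 0 lower, with a median of 1.09. These were Cdh1 at 488 and 1602, Trp63 at 270 and 743, Sp8 at 138 and 401 and Dlx5 at 73.3 and 186, and further probe sets of Trp63 gave log2 ratios of -0.20 and 0.01. Bmp4 went the other way, at 2862 and 1489, a log2 ratio of -0.94, and Fgf8 was nearly level, at 445 and 492. Gata6, the member that limb mesenchyme expresses, thus stood nearer to 0 than either the mesenchyme median or the hepatoblast median, but whether these differences are distinct was not tested.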

How the data were processed

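Whole limb bud RNA (200 ng) was hybridised to Affymetrix Mouse Genome 430 2.0 arrays, per the labels' protocols. The deposited values are MAS 5.0 signal intensities on a linear scale, summarised by the authors per the series' design text. Precision is limited by the number of arrays. Of 45101 probe sets, 64 controls were set aside, and 34741 of 34945 single symbols matched RefSeq genes of GRCm38.p6 by Entrez identifier. Log2 ratios, counts and medians were computed with Python 3.11.15, numpy 2.4.6 and pandas 2.3.3. The steps were tested on simulated data. Alternatives covered the floor, a pseudocount of 32, scaling (with statsmodels 0.14.6 for loess), the fold threshold and the probe set of a gene. Named were all members and, of each other list, up to 4 genes past 2-fold with the highest signal and genes under the floor. Foxa3, Onecut2, Cebpb, Cebpd, Gata1, Gata2, Creb3l3, Sox17, Amn and the olfactory receptors were named after their values were seen. So were Prrx1, Meis1, Meis2, Hoxd13, Pdgfra, Lhx2, Hand2, Tbx18, Actc1, Ryr2 and Smyd1. Dcx, Bmp4, Fgf8, Rhox5, Dab2 and Fxyd2 were as well. The members, lists and rules were chosen with earlier results of these data known.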

Additional observations from a re-analysis of the deposited data

How the results depend on the processing

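The number of member genes at least 2-fold higher was 3 (4.15% of all genes). It became 0 under a 60th percentile floor (1.64% of all genes), 5 at a threshold of 1.5-fold (11.2%) and 1 at 4-fold (0.756%). It was within 1.5 times under the other 8 alternatives. The 4 higher probe sets became 0 under a 60th percentile floor (1.37% of all probe sets), 9 without a floor (13.8%) and 1 at 4-fold (0.509%). No member was lower under any alternative except 1 probe set, Prox1 1421336_at, without a floor (12.7% of all probe sets). The median of 0.94 moved to 0.26 under a 60th percentile floor, where 3 genes were left, and to 1.41 without a floor. The 29 higher genes of the endodermal lists, of 50 above the floor, became 15 of 35 under a 60th percentile floor (1.64% of all genes). At 4-fold they were 16 of 50 (0.756%). The higher floor leaves fewer genes above it, and no floor lets signals under detection count. Of 64 ratios of single probe sets under the alternatives, 54 stayed within the SD of 0.28 and 10 moved. All 10 that moved belonged to the 4 higher probe sets, of Hnf4a, Prox1 and Gata4. Probe sets under the 60th percentile floor on both arrays gave no ratio there and are not among the 64. Of 308 counts of single marker lists, 260 stayed within 1.5 times. No paired analysis was possible because each group has 1 array. Weak signal limits Hnf4a, Prox1, Gata4 and Gata5, which lie near background on 1 or both arrays.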
